A study of Mus musculus with 6 samples.

Results

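The genes described here are the mouse zinc finger genes with a plain Zfp number for a name (Zfp36, an RNA-binding protein of another zinc finger class, was left out) that were expressed in every library of the study. They were chosen from the deposited FPKM values (fragments scaled by transcript length and by the number of mapped fragments), with a minimum of 1 in all 6 libraries. Of 28212 genes in the table, 352 carried such a name, 167 met the minimum and 185 did not. All 167 entered the comparison between groups, so no gene of the set was lost to the filter on low counts.

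The study asked how HGF (hepatocyte growth factor), which signals through the tyrosine kinase receptor Met, alters gene expression in cholangiocarcinoma, a cancer of the bile duct epithelium. Poly(A) RNA of the mouse LD-1 cell line was sequenced in pairs of reads, in 3 libraries labelled HGF and 3 labelled Control. The labels give no dose, time, passage or vehicle for either group, and no genotype or manipulation other than HGF. They call the material both a cell line and tissue, the library protocol speaks of an adipose type, and nothing states that the 3 libraries of a group came from separate cultures, so the p-values given below rest on library-to-library variation that could be technical. LD-1 is 1 line, and the values describe that line.

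Most Zfp genes encode C2H2 proteins, in which a cysteine pair and a histidine pair hold a zinc ion and tandem fingers read a stretch of DNA. The largest subgroup adds a KRAB box, which recruits the corepressor Trim28 and through it Setdb1, HP1 and DNA methylation. KRAB zinc finger genes lie in dense clusters, expanded by duplication, and many silence retroelements. Others act as activators, architectural proteins, RNA-binding proteins, splicing factors or ribosome factors, so the shared name does not stand for 1 function.

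The name was checked against the annotation. The deposited table assigned 144 of the 167 to its zf-C2H2 family. The finger pattern was found in the longest open reading frame of 163, with a median of 9 fingers and a maximum of 40, in Zfp142. It was not found in Zfp839, Zfp330, Zfp365 and Zfp703, which therefore belong to the set by name. Letters of a KRAB box were found in 53 and not in 114. The pattern misses diverged boxes, so the 114 are genes in which these letters were not found and may include KRAB proteins.

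The 250 bases upstream of the RefSeq start site (mouse GRCm38.p6) are shown for 4 genes, on the strand of the gene and 5′ to 3′. Zfp143 is shown because it rose most, and Zfp672 and Zfp952 because they fell most. Zfp317 is shown because it was called and its window holds a match to the ZNF143-type motif, which the protein encoded by Zfp143 binds. Capitals mark matches to the motifs searched.
Zfp143, chr7:110061452-110061701, plus strand: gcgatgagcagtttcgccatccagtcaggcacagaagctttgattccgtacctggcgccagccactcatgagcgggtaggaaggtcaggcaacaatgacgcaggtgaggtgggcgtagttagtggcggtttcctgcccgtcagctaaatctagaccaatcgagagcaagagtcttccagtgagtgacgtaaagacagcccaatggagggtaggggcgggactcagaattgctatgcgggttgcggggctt
Zfp672, chr11:58323366-58323615, minus strand: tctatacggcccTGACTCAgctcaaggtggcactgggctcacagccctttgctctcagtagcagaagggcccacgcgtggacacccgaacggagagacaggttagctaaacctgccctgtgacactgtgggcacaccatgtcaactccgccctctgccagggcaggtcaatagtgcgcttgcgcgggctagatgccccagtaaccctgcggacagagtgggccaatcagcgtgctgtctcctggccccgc
Zfp952, chr17:32992889-32993138, plus strand: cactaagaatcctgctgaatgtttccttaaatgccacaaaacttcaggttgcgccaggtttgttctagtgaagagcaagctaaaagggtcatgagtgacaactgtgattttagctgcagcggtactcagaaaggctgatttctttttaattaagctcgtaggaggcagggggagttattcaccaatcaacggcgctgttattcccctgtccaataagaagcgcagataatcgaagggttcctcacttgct
Zfp317, chr9:19621841-19622090, plus strand: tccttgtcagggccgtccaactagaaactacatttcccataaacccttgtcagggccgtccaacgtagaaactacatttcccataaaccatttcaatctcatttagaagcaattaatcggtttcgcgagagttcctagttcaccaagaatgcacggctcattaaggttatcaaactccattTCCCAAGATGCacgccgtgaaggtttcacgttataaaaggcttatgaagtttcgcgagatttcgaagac
The motifs were TCCCA, 2 bases of any kind and ATGC (ZNF143-type), TGANTCA (AP-1), TGACGTCA (CRE) and CCGGAAG (ETS), on both strands; none of these patterns holds another. The Zfp672 window holds an AP-1 match 238 bases before the start and the Zfp317 window a ZNF143-type match 69 bases before it. The RefSeq start of Zfp672 lies 6974 bases inside the gene as deposited, so this window is not at the outer end of the deposited gene. The start of Zfp143 lies 485 bases inside the deposited gene, and those of Zfp952 and Zfp317 lie within 11 bases of its edge.

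RefSeq windows were matched by symbol for 137 of the 167 genes. A ZNF143-type match stood in 6 of them (4.38%), against 0.907% of 27025 windows of all genes and 1.75% of 7956 windows of tested genes with an FPKM of at least 1 in all libraries. AP-1 matches stood in 5.11% of the Zfp windows, 6.87% of all windows and 4.19% of those of expressed genes. CRE matches stood in 2.92%, 1.62% and 2.84%, and ETS matches in 17.5%, 7.05% and 15.6%, in the same order. The median GC content of the windows was 56.4% for the Zfp genes and 60.4% for the expressed genes. The 6 genes with a ZNF143-type match were Zfp148, Zfp691, Zfp697, Zfp1, Zfp317 and Zfp111. Zfp317, the only 1 of them called, fell from 19.4, 18.7 and 20.2 to 13.7, 17.03 and 15.8 CPM (counts scaled to library size), a log2 change of -0.33 ± 0.09 (SE; adjusted p by edgeR = 0.021).

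Expressed Zfp genes were mostly low in level. Their mean FPKM over the 6 libraries ran from 1.21 to 33.6 with a median of 3.65, and 106 of 167 (63.5%) lay under 5. The genes with the highest mean FPKM were Zfp706 (33.6), Zfp703 (30.5), Zfp740 (29.9), Zfp106 (26.9) and Zfp207 (26.5). Just inside the minimum were Zfp653, Zfp202 and Zfp11, with lowest FPKM of 1.03, 1.03 and 1.04. Just outside were Zfp945, Zfp90 and Zfp397, with lowest FPKM of 0.999, 0.997 and 0.988.

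With HGF, 53 of the 167 genes were lower and 18 were higher, and 96 were not called (edgeR's quasi-likelihood test over 17322 genes, Benjamini-Hochberg adjusted p under 0.05; 89 had an unadjusted p under 0.05). The 53 lower genes are 31.7% of the set and the 18 higher genes 10.8%. Among all tested genes 19.3% were called lower and 19.1% higher, and among the 10837 tested genes with an FPKM of at least 1 in all libraries 23.8% were lower and 24.8% higher. The shares stand beside each other as a description, and their difference was not tested. The 3 HGF libraries all lay below the 3 controls in 72 Zfp genes (43.1%) and all above in 23 (13.8%), where 29.9% and 30.0% of the expressed genes did so. The split depended on the setting: higher genes were 25.4% of the Zfp calls here, 7.23% with library totals alone (6 higher, 77 lower) and 5.95% with limma on log2(FPKM + 1) (5 higher, 79 lower), which changed the test, the values and the filter together. The calls over all tested genes tipped the same way. They were 3316 higher and 3349 lower here, 2361 and 4941 with library totals alone, and 2061 and 4244 with limma. Leaving out 1 library gave 33 lower without Control 1, 28 lower and 9 higher without Control 2, 35 and 11 without HGF 1, and 31 and 8 without HGF 2. It gave 42 lower and 12 higher without Control 3, and 42 and 19 without HGF 3. Over all tested genes these fits gave 2340 to 3054 lower and 2553 to 3174 higher, fewer than with all libraries.

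Most of these changes were small. The median log2 fold change (HGF minus Control) of the Zfp genes was -0.15, with quartiles of -0.30 and 0.06, beside -0.02 for all tested genes and -0.01 for the expressed genes. It lay below 0 in 114 Zfp genes (68.3%) and in 51.3% of the expressed genes. Of the 71 called genes 56 changed by less than 0.5 on the log2 scale, and 1, Zfp672, by at least 2-fold. In single libraries the median Zfp gene stood at -0.15, -0.14 and -0.11 in HGF 1 to 3 and at 0.01, 0.00 and -0.02 in Control 1 to 3, as log2 CPM relative to the control mean. The groups did not overlap in this median. With library totals alone the median of all tested genes was itself -0.13, and over all fits the Zfp median lay 0.098 to 0.178 below that of all tested genes.

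**Figure D1:**
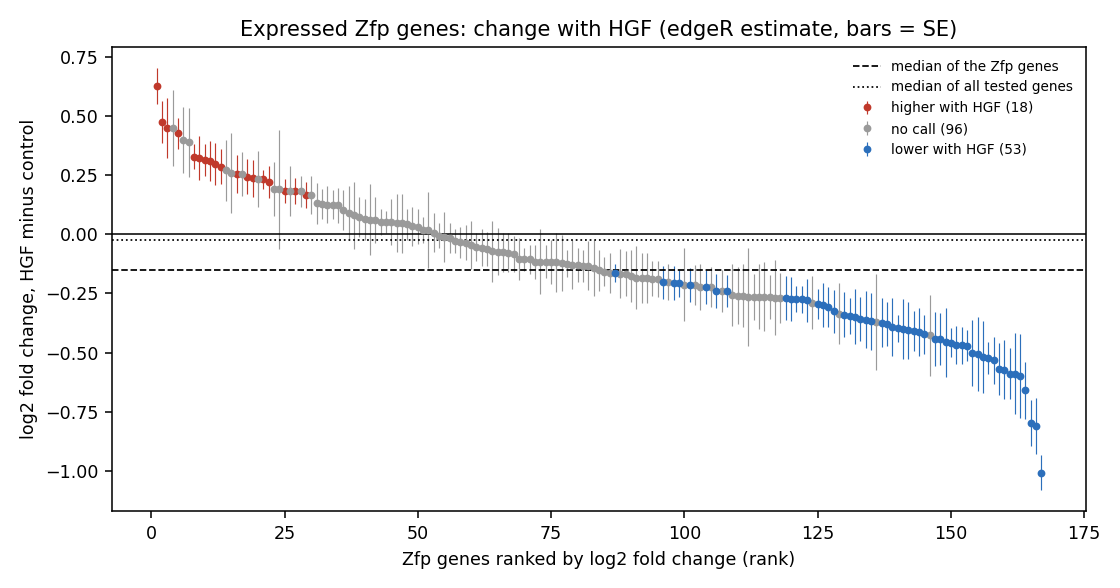
Log2 fold change (HGF minus Control) of the 167 expressed Zfp genes in rank order, with points for edgeR estimates, bars for their SE and colours for the call. The 53 genes called lower reach -1.01 and the 18 called higher reach 0.63; the dashed median of the Zfp genes (-0.15) lies below the dotted median of all tested genes (-0.02).

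The minimum itself removed genes that were lower with HGF. Of the 185 Zfp genes under it, 43 had all 3 controls at 1 FPKM or more and 3 had all 3 HGF libraries there. The same counts were not made over all genes. With limma on log2(FPKM + 0.1) the median of all genes in that fit was itself -0.11. Of the 149 Zfp genes under the minimum that were tested 57 were lower (38.3%) and 5 higher (3.36%), with a median of -0.51. Among all tested genes 19.3% were lower and 19.1% higher. Of the other genes with a mean of 0.5 to 1 FPKM 18.4% were lower and 13.2% higher. When the mean FPKM, in place of the lowest, had to reach 1, the set held 211 genes, of which 78 were lower and 20 higher. These counts describe what the choice of members did and are not a further result.

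Zfp143 (ENSMUSG00000061079, chr7:110061217-110095394, plus strand), which encodes an activator that binds promoters and chromatin loop anchors, rose most. Its level was 23.7, 23.6 and 25.9 CPM in the HGF libraries and 15.3, 16.6 and 15.5 CPM in the controls. The groups were well apart, and the rise was 0.63 ± 0.07 on the log2 scale (adjusted p = 0.000288). Zfp7 stood at 56.5, 58.0 and 52.1 CPM against 43.2, 39.0 and 41.9 (0.43 ± 0.06, adjusted p = 0.001). Zfp334 stood at 59.9, 56.5 and 54.8 CPM against 44.99, 46.1 and 45.3 (0.33 ± 0.05, adjusted p = 0.0016). Every HGF library was above every control for these 3 genes, and the calls held whichever 1 of the 6 libraries was left out. Zfp7 shares a near-identical stretch with Gm49527, which overlaps it on the same strand and had at most 747 counts in a library, so the division of reads between them is uncertain.

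The other 7 of the 10 largest called rises were Zfp532, Zfp775, Zfp239, Zfp277, Zfp236, Zfp593 and Zfp609, between 0.28 and 0.47 on the log2 scale. Zfp593, the counterpart of a yeast factor for export of the large ribosomal subunit, stood at 24.2, 23.0 and 20.7 CPM against 17.2, 17.9 and 20.1. Its groups nearly met, and its call was lost when Control 1, Control 2, HGF 1 or HGF 2 was left out (adjusted p up to 0.104). Zfp775 lost its call without Control 1, Control 3 or HGF 1, Zfp236 without Control 2, Control 3 or HGF 1, and Zfp609 without HGF 2 (adjusted p up to 0.0764, 0.0728 and 0.0520). Zfp239 lost it without Control 2, Control 3, HGF 2 or HGF 3 (up to 0.0849). Zfp532 and Zfp277 stayed called whichever library was left out, but Zfp277 was not called in the 3 limma fits on FPKM (adjusted p of 0.0791 to 0.162) and Zfp532 not in the 1 with no filter (0.0788). Zfp532, Zfp775 and Zfp593 share near-identical stretches with other genes, and their counts are uncertain for that reason. With library totals alone Zfp775, Zfp239, Zfp236, Zfp593 and Zfp609 were not called.

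Zfp672 (ENSMUSG00000049755, chr11:58315114-58330339, minus strand), a gene with 13 fingers and no KRAB letters found, fell most. It stood at 17.3, 17.8 and 17.5 CPM in the HGF libraries and at 38.2, 32.8 and 34.8 CPM in the controls. The HGF libraries were nearly equal, and the level was 2.01-fold lower (log2 -1.01 ± 0.07, adjusted p = 2.34e-05). Zfp672 overlaps 1 gene on the opposite strand in the deposited table, which had at most 31 counts in a library where Zfp672 had at least 1081. Zfp952, a KRAB gene of a chromosome 17 cluster, stood at 9.10, 11.9 and 12.3 CPM against 19.1, 18.6 and 20.6 (-0.81 ± 0.12, adjusted p = 0.000811). Zfp369, whose protein binds the neurotrophin receptor p75, stood at 8.81, 9.94 and 10.2 CPM against 15.5, 18.02 and 16.7 (-0.80 ± 0.10, adjusted p = 0.000309). In all 3 genes every HGF library was below every control.

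The other 7 of the 10 largest called falls were Zfp867, Zfp825, Zfp68, Zfp653, Zfp948, Zfp445 and Zfp160, between -0.66 and -0.53. Zfp445, which maintains imprinted DNA methylation together with Zfp57, stood at 27.3, 30.1 and 37.4 CPM against 44.3, 49.8 and 46.4 (-0.57 ± 0.11, adjusted p = 0.00363). HGF 3 was the nearest to the controls without reaching them. Zfp68 had 9.99 CPM in HGF 1 and 16.5 and 16.1 in HGF 2 and HGF 3, below 19.6, 22.3 and 22.2 in the controls. Its call was lost without Control 2 or Control 3 (adjusted p up to 0.0788), and that of Zfp825 without Control 1, Control 2, HGF 1 or HGF 2 (up to 0.0914). Zfp825 also shares a near-identical stretch with other genes and is uncertain for that reason.

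**Figure D2:**
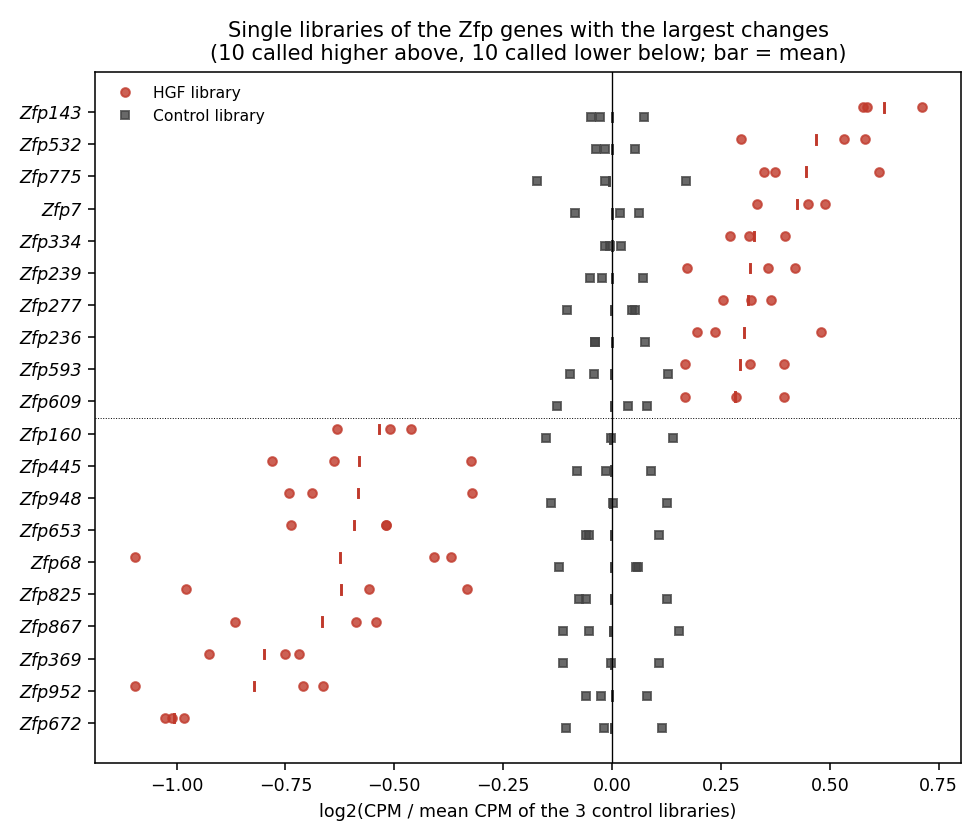
Single-library levels of the 10 largest called rises (above the dotted line) and 10 largest called falls (below it), as log2 of CPM over the mean of the 3 controls; circles are HGF libraries, squares control libraries and short bars group means. In all 20 genes the 3 HGF libraries lie on 1 side of the 3 controls, and Zfp672 lies lowest, near -1.01.

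Genes were also grouped by known role. Of 40 genes listed by role 30 were members, of which 4 were higher and 11 lower, with a median of -0.12, beside 31.7% lower and 10.8% higher over the whole set. In ribosome quality control and maturation, Zfp598, the ligase that senses collided ribosomes, fell from 111, 110 and 102 CPM to 98.8, 91.4 and 83.2 (-0.24 ± 0.07, adjusted p = 0.0204). Its call was lost without Control 1, Control 2, HGF 2 or HGF 3 (adjusted p up to 0.0843). Zfp622, which acts late in maturation of the large subunit, had -0.11 (adjusted p = 0.115). In mitosis and splicing, Zfp207, which loads Bub3 at kinetochores, fell from 208, 211 and 202 CPM to 181, 185 and 188 (-0.16 ± 0.04, adjusted p = 0.00839). The groups were apart by little more than their own spread, and without HGF 2 the adjusted p was 0.0505. Zfp830, a spliceosome-associated factor, fell by 0.30 on the log2 scale (adjusted p = 0.0329), a call lost when any 1 library other than HGF 3 was left out (adjusted p up to 0.112). Zfp326 had -0.07 (adjusted p = 0.6).

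Among the RNA-binding and carcinoma genes the changes went both ways. Zfp106, an RNA-binding protein needed by motor neurons, stood at 339, 330 and 346 CPM with HGF against 290, 297 and 277, and rose by 0.23 ± 0.04 on the log2 scale (adjusted p = 0.00226). Its groups did not overlap, but a near-identical stretch of another gene makes its count uncertain. Zfp346 had -0.20 (adjusted p = 0.0669). Zfp638, listed with the RNA-binding genes but under the minimum, was called lower (-0.55, adjusted p by edgeR = 0.00695). Zfp217 and Zfp703, whose human counterparts are amplified in carcinomas, were not called at 0.05 ± 0.04 and -0.01 ± 0.05. Zfp703 spanned 111 to 119 CPM with HGF and 109 to 123 CPM in the controls, so the groups lay within each other. Zfp292 fell by 0.36 on the log2 scale (adjusted p = 0.0429), but lost the call when any 1 library other than HGF 3 was left out (adjusted p up to 0.14). Zfp148, Zfp281 and Zfp91 were not called, at -0.15, -0.18 and -0.04.

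Zfp532, Zfp592 and Zfp687 encode proteins whose human counterparts form a complex with ZMYND8. Zfp532 rose from 14.2, 14.4 and 15.1 to 21.7, 21.04 and 17.9 CPM (0.47 ± 0.09, adjusted p = 0.00329), Zfp687 rose by 0.22 (adjusted p = 0.0324) and Zfp592 fell by 0.21 on the log2 scale (adjusted p = 0.0428). The groups of Zfp687 overlapped, and its call was lost with library totals alone and without Control 2, Control 3, HGF 1 or HGF 2 (adjusted p up to 0.111). Zfp592 lost its call without Control 1, Control 2, HGF 1 or HGF 3 (up to 0.142). Zfp410, an activator whose main known target is Chd4, fell from 42.4, 43.2 and 40.5 to 37.9, 35.0 and 36.4 CPM (-0.21 ± 0.06, adjusted p = 0.0211), a call lost without Control 1, Control 2, HGF 2 or HGF 3 (up to 0.107). Chd4 itself had 0.02 ± 0.04 (adjusted p = 0.79). Zfp335 and Zfp462 were not called (0.13 and 0.25, adjusted p = 0.152 and 0.0617).

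Of the members listed for imprinting and retroelement silencing, Zfp445 fell as described above while Zfp57 and Zfp568 were not called. Zfp809 and Zfp932, also listed, were under the minimum and were called lower (-0.59 and -0.87, adjusted p by edgeR = 0.024 and 0.019). Zfp809 missed the minimum through HGF 3 (0.977 FPKM). Zfp819, also listed, was not tested. Zfp57 stood at 53.9, 57.9 and 59.7 CPM with HGF and 55.6, 54.0 and 55.8 CPM in the controls (0.05 ± 0.06, adjusted p = 0.501). The groups overlapped. Zfp568, which silences a placental Igf2 transcript in the mouse, stood at 23.8, 23.5 and 18.6 CPM against 11.1, 22.7 and 24.0. Control 1 had less than the other 5 libraries, and the difference was 0.19 ± 0.25 (adjusted p = 0.594). Of the p75 partners Zfp110 was not called (-0.13, adjusted p = 0.184), unlike its relative Zfp369; the difference between the 2 genes was not tested.

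Among lineage and signalling factors, Zfp318, needed for IgD expression in B cells, fell from 25.6, 23.5 and 24.3 to 18.4, 16.7 and 19.7 CPM (-0.42 ± 0.08, adjusted p = 0.00363). Zfp746, a repressor of Ppargc1a known as PARIS, fell from 42.996, 40.6 and 40.8 to 35.4, 34.3 and 33.1 CPM (-0.27 ± 0.06, adjusted p = 0.00517). In both genes all HGF libraries lay below all controls. Zfp451, a SUMO ligase, fell by 0.21 on the log2 scale (adjusted p = 0.0479), and lost the call when any 1 library other than HGF 3 was left out (adjusted p up to 0.177). Zfp467 and Zfp516, both known from fat cell differentiation, were not called (0.40 and 0.13, adjusted p = 0.0506 and 0.279). Of the most highly expressed genes, Zfp706 had 0.17 (adjusted p = 0.0456) with overlapping groups and lost the call without Control 1, Control 2, HGF 2 or HGF 3 (up to 0.154), and Zfp740 had 0.12 (adjusted p = 0.143).

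Of the 53 genes with KRAB letters 22 were called lower and 2 higher, and of the other 114 genes 31 were lower and 16 higher. The median log2 fold change was -0.22 for the KRAB genes and -0.12 for the other Zfp genes. With library totals alone the counts were 26 lower and 2 higher for the KRAB genes and 51 and 4 for the others, and with limma on log2(FPKM + 1) 28 and 2 against 51 and 3. Over all genes these 2 fits called 4941 lower and 2361 higher, and 4244 lower and 2061 higher. In single libraries the median KRAB gene stood at -0.23, -0.21 and -0.19 with HGF, and the median of the others at -0.10, -0.10 and -0.11. The others may include KRAB proteins with diverged boxes. Zfp369, Zfp445 and Zfp160, among the 10 largest called falls, were counted with the others. The difference between these classes was not tested. KRAB genes had a lower mean level (median 2.55 against 4.32 FPKM) and a lower transcript GC content (44.5% against 51.8%), and the part of either in the difference was not tested. Without HGF 1 or Control 2 the number of KRAB genes called lower was 10, without Control 1 or HGF 2 it was 12, and without Control 3 or HGF 3 it was 15. Among the other genes the count lower was 18 without Control 2 and 19 without HGF 2, and the count higher was 7 without Control 2, 9 without HGF 1, 6 without HGF 2 and 10 without Control 3. Over all tested genes the count lower was 3349 with every library and 2340 to 3054 without 1 of them. The 2 KRAB genes called higher were Zfp7 and Zfp334.

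Genes were also grouped by their number of fingers. Genes with 1 to 4 fingers (31) had a median of -0.11, with 6 higher and 7 lower. Genes with 5 to 9 (53) and 10 to 14 fingers (52) had medians of -0.16 and -0.15, with 18 and 17 lower and 4 and 4 higher. Genes with 15 or more fingers (27) had a median of -0.24, with 3 higher (11.1%) and 11 lower (40.7%). The 4 genes with no finger found had 1 higher and 0 lower. Over the whole set 31.7% were lower and 10.8% higher, and among all expressed genes 23.8% and 24.8%. KRAB genes had a median of 11 fingers and the others 8, so the classes are not independent, and no difference between them was tested.

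Zfp genes were described by expression level beside other genes of the same level. Over all tested Zfp genes grouped by mean FPKM, 34 of 72 with 1 to 2 FPKM were lower (47.2%) and 4 higher, with a median of -0.41. Of the 1476 other genes at that level 22.2% were lower and 14.7% higher, with a median of -0.10. From 2 to 5 FPKM the medians were -0.18 (78 Zfp genes) and -0.10, from 5 to 10 FPKM -0.08 (47) and -0.05, and at 10 FPKM or more 0.05 (14) and 0.05. At the highest level 4 Zfp genes were higher and 4 lower, with the groups of calls equal in number. These groups use the mean over all libraries, not the minimum that chose the members, and the difference between Zfp and other genes was not tested.

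**Figure D3:**
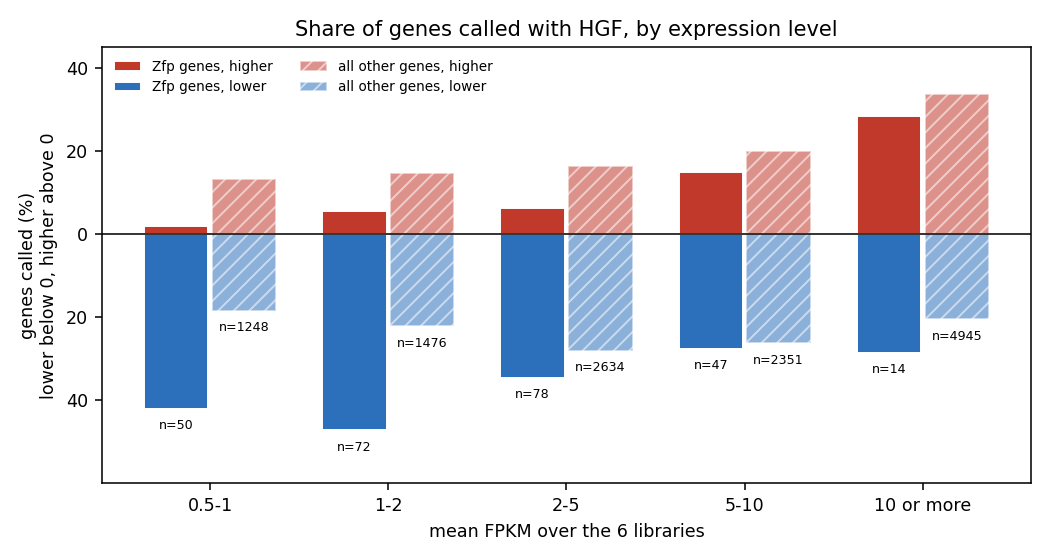
Percent of tested genes called higher (above 0) and lower (below 0) with HGF by mean FPKM, for Zfp genes (solid) and all other genes (hatched), with the number of genes under each bar. At 1 to 2 FPKM 47.2% of the Zfp genes and 22.2% of the other genes were lower. At 10 FPKM or more 28.6% of the Zfp genes were called each way, beside 33.7% higher and 20.5% lower of the other genes.

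The Zfp genes were also grouped by transcript GC content. Their lowest median was in the range of lowest GC content, and the higher ranges followed no steady order. Of 30 members with a GC content under 43%, 21 were lower and 1 higher, with a median of -0.36. Of the 1289 other expressed genes in that range 415 (32.2%) were lower and 116 higher, with a median of -0.16. In the higher ranges the Zfp medians lay between -0.22 and -0.04 and those of other genes between -0.05 and 0.05, with the Zfp genes below the other genes in each. Within the lowest range the KRAB genes had 14 of 19 lower and the others 7 of 11. From 46 to 49% the medians were 0.05 for 7 KRAB genes and -0.05 for the others, and from 49 to 52% 0.26 for 5 KRAB genes and -0.09 for the others, so the KRAB median was not the lower one in every range. From 43 to 46% they were -0.12 and -0.18, and from 52 to 55% both were -0.22. The KRAB median was the lower one under 43% (-0.39 against -0.31) and at 55% or more (-0.27 for 5 KRAB genes against -0.01). With a correction of each library for GC content the set held 53 lower and 17 higher genes, 41 and 14 of them also called without it. With this correction the median was -0.20 for the KRAB genes and -0.11 for the others. The GC-poor members then held 11 lower genes in place of 21, with a median of -0.23. Without single libraries their count was 7 (Control 2), 9 (HGF 1), 10 (HGF 2), 13 (Control 1) and 14 (Control 3).

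**Figure D4:**
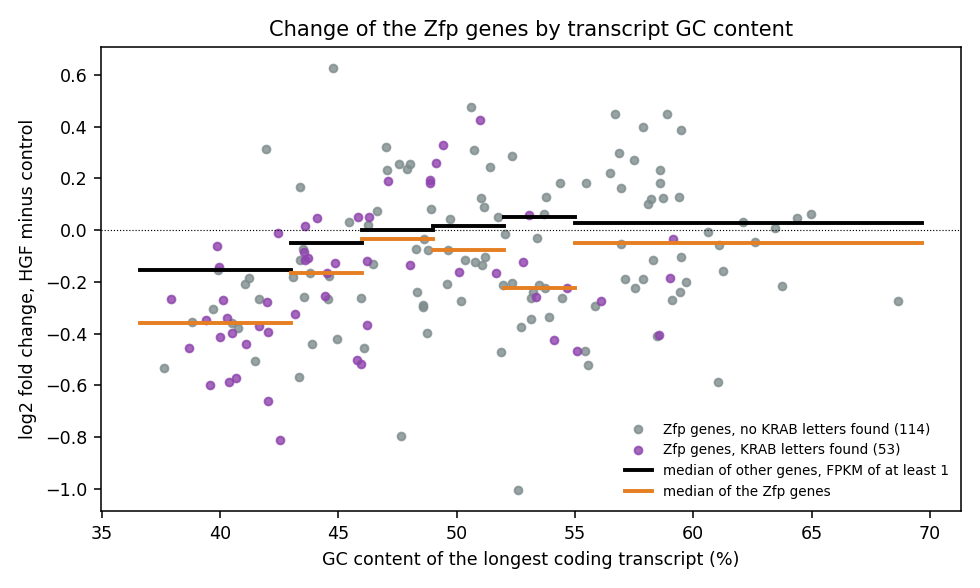
Log2 fold change (HGF minus Control) of each expressed Zfp gene against the GC content of its longest coding transcript, coloured by whether KRAB letters were found. Bars give medians in 6 GC ranges for the Zfp genes (orange) and for other genes with an FPKM of at least 1 (black); below 43% they lie at -0.36 and -0.16.

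The 167 genes lay on 20 chromosomes, with 46 on chromosome 7 and 17 on chromosome 17. On chromosome 17, 10 of 17 were lower, none was higher and the median was -0.28. The 550 other expressed genes there had 150 lower, 135 higher and a median of -0.05. On chromosome 7, 7 of 46 were lower and 3 higher, with a median of -0.06, beside 147 lower, 201 higher and 0.04 for its 729 other expressed genes. On chromosomes 5, 8, 11 and 13, with 9, 13, 8 and 8 genes, 4, 5, 5 and 4 were lower and none was higher. Of the other expressed genes of these chromosomes 23.2%, 25.9%, 27.0% and 24.9% were lower and 24.1%, 25.04%, 27.5% and 22.0% higher. Chromosome 2 had 3 higher and 1 lower of 7, with a median of 0.18. Of its 879 other expressed genes 22.0% were higher and 27.9% lower, with a median of -0.03. None of these differences between chromosomes was tested, and neighbouring genes are not independent. The chromosome 17 count was 6 with the GC correction, 5 without Control 2 or HGF 3, and 6 without HGF 1 or HGF 2. The chromosome 7 counts lower and higher were 7 and 3 here, 3 and 5 with median-of-ratios scaling, and 16 and 1 with library totals, so no direction is given for that chromosome. Its count higher was 1 without HGF 1 or HGF 2, and its count lower was 1 without Control 1, 2 without Control 2, HGF 1 or HGF 3, and 3 without HGF 2.

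**Figure D5:**
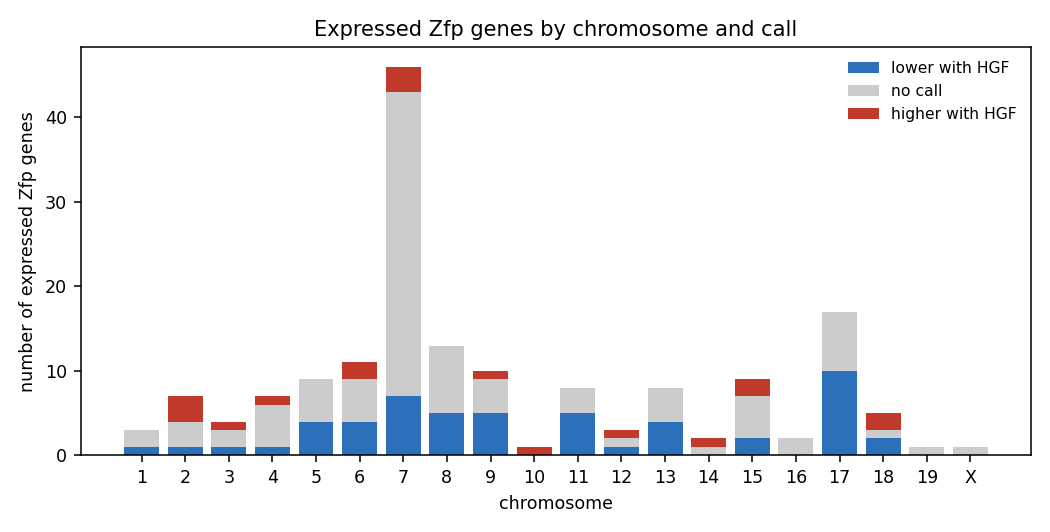
Number of expressed Zfp genes on each chromosome, divided into genes called lower with HGF (blue), not called (grey) and called higher (red). Chromosome 7 holds 46 genes, of which 36 were not called, and chromosome 17 holds 17, of which 10 were lower and none higher.

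Neighbouring genes were described as clusters. Genes were joined into a cluster where the next Zfp gene lay within 250000 bases, and clusters with at least 4 members were kept; the cluster genes named here were chosen after their values were seen. In the cluster at chr17:32765496-33631779, 4 of 6 members were lower, namely Zfp952, Zfp871, Zfp472 and Zfp799, with Zfp870 and Zfp414 not called. Zfp871 stood at 48.8, 57.5 and 66.3 CPM with HGF against 71.9, 78.4 and 79.7 in the controls (-0.41 ± 0.10, adjusted p = 0.0111). All 11 tested Zfp genes of that cluster, members or not, had a median of -0.51, with 8 lower. The 4 other expressed genes within the span held 2 lower and none higher, with a median of -0.28. In the cluster at chr17:21383748-22456689, Zfp53, Zfp944 and Zfp948 were lower and Zfp52 was not called. All 18 tested Zfp genes there had a median of -0.51, with 12 lower, and the 1 other expressed gene in the span was lower too (-0.98). Among the expressed genes that are no Zfp members on chromosome 17, 27.3% were lower, and the difference from the clusters was not tested.

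On chromosome 6, at chr6:47819266-48086593, Zfp282, Zfp212 and Zfp746 were lower and Zfp956 and Zfp777 were not called. Zfp282 stood at 28.2, 26.0 and 26.7 CPM against 41.1, 33.9 and 36.7 (-0.47 ± 0.08, adjusted p = 0.00203). The cluster with most expressed members, at chr7:127233061-127885992, held 9 of them with 3 lower and 1 higher. The 16 other expressed genes in its span held 3 lower and 3 higher. The chromosome 7 clusters at chr7:29768552-30169727 and chr7:4915217-5053723 held 7 and 5 members with no call, and that at chr7:24081924-24587641 held 5 with 1 lower. The span at chr7:4915217-5053723 held 2 other expressed genes (1 higher) and that at chr7:24081924-24587641 held 6 (2 lower, 3 higher). Among expressed genes that are no members, 22.1% were lower and 25.9% higher on chromosome 6, and 20.2% and 27.6% on chromosome 7. The difference from the clusters was not tested. The coordinates are those of the deposited table. Of the 167 genes 145 have the same coordinates in a GRCm38 annotation (GENCODE M21), although the submitters' processing notes name mm8.

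Related families without a plain Zfp number were counted in the same way. Of 32 expressed Zbtb genes, which pair the fingers with a BTB domain, 8 were lower and 6 higher, with a median of -0.10. Of 13 Zscan and Zkscan genes 5 were lower and 1 higher (median -0.11), and of 8 Zfp genes with a number and a letter 2 were lower and 2 higher. The 81 expressed zf-C2H2 genes without a plain Zfp number had 18 lower and 19 higher, with a median of -0.05. Only plain Zfp names were taken out of these 81, so they share genes with the families above. Among all expressed genes 23.8% were lower and 24.8% higher. No difference between families was tested.

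Of 21 corepressor genes that act with KRAB proteins 6 were higher and 4 lower, with a median of -0.01, beside 24.8% higher and 23.8% lower among the expressed genes. With library totals alone 2 were higher and 5 lower, with a median of -0.11. Trim28, which binds the KRAB box, stood at 461, 449 and 429 CPM with HGF and 469, 460 and 470 CPM in the controls. The groups overlapped (-0.06 ± 0.04, adjusted p = 0.23), and the histone methyltransferase gene Setdb1 had -0.02 ± 0.05 (adjusted p = 0.771). Chd3, a nucleosome remodeller of the NuRD complex, rose from 126, 127 and 114 to 334, 315 and 321 CPM (1.40 ± 0.05, adjusted p = 7.91e-07). Its change was larger than that of any Zfp gene of the set. Uhrf1 and Dnmt1, which maintain DNA methylation, rose by 0.43 and 0.23. Smarcad1 fell by 0.39 on the log2 scale, and Atf7ip, Dnmt3a and Cbx1 fell by 0.17, 0.19 and 0.17. The 4 lower genes were 1 without Control 1, Control 2, HGF 1 or HGF 2 and 2 without Control 3, and the higher genes were 3 with the GC correction. A further list held genes of the HUSH complex and Morc2a, which acts with it. Of its 4 tested genes Morc2a rose by 0.20 (adjusted p = 0.0138) and Tasor fell by 0.33 on the log2 scale (adjusted p = 0.0451). Mphosph8 and Pphln1 were not called.

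The libraries held 57073866 to 66302502 counts. Summed markers of bile duct epithelium were 2852 to 2863 CPM with HGF and 1461 to 1496 in the controls, 5 of 9 genes being higher, and they were present in both groups. Summed hepatocyte markers were 27.1 to 43.5 CPM against 4.52 to 7.02 (8 of 10 higher) and fibroblast markers 118 to 142 against 48.1 to 51.2 (3 of 5 tested higher). Skeletal muscle markers summed to 531 CPM in Control 3 and to at most 6.34 in the other libraries, and macrophage markers to 116 in Control 3 and 46.1 to 84.8 elsewhere. Endothelial, lymphoid and erythroid markers summed to under 5 CPM in every library, and no marker with a row in the table was at 0 in all 6. The part of these values in the Zfp results was not tested; without Control 3 the set held 42 lower and 12 higher genes. In a bulk sample fewer cells of a type and less RNA per cell cannot be told apart. Of the 167 genes 68 overlap another gene and 54 of them 1 on the opposite strand, and whether counting used strand is not given in the sources used here. A near-identical stretch of another gene's transcript was found for 31, whose counts are uncertain.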

How the data were processed

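The deposited table holds, for each gene and library, whole-number counts and FPKM values made by the authors; per the submitters' processing notes HISAT2 2.0, StringTie 1.3.0 and Bowtie 0.12.2 were used. Genome mm8 is named there, with coordinates mostly equal to GRCm38. In the deposited counts a value of 4 was more frequent (1108.5 genes per library) than 3 or 5 (527 and 306), so 1 count need not be 1 fragment. Counts were tested with edgeR 4.0.16 (R 4.3.3; default expression filter, TMM scaling, quasi-likelihood, two-sided, 17322 genes); CPM uses TMM library sizes. DESeq2 1.42.0 and limma 3.58.1 gave alternatives. No count minimum beyond the FPKM rule was set for the members.

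The members and lists were chosen with earlier results of these data known. Named genes were the 10 largest called rises and falls, the 5 highest mean FPKM, members of role lists, 3 genes on each side of the minimum and the corepressor and HUSH lists. Open reading frames, GC content and lengths came from GENCODE M21 transcripts, in place of the RefSeq proteins planned. A KRAB box was a match to EW, 2 residues, L, 4 to 8 residues, LY, 2 residues, V and M or T. A finger was C, 2 to 4 residues, C, 12 residues, H, 3 to 5 residues and H or C. Near-identical meant 95% identity over 300 bases. No pairing of libraries by replicate number was named in the labels or seen in the values. No gene set test was made.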

Additional observations from a re-analysis of the deposited data

How the results depend on the processing

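The counts of Zfp genes called lower (53) and higher (18) and their median (-0.15) kept their direction in every alternative run. With library totals alone 6 were higher and the median was -0.25; limma gave 5 higher with log2(FPKM + 1), 5 and a median of -0.25 with log2(FPKM + 0.1), and 3 with no FPKM filter. The calls over all genes of these fits also tipped to lower, with 2361 higher and 4941 lower for library totals alone. The cause was not tested. With no low-count filter, and so more genes tested, 32 were lower. Leaving out 1 library gave 8 to 19 higher, 28 to 42 lower and medians of -0.16 to -0.13. A minimum of 0.5 FPKM gave 86 lower and a median of -0.21, of 2 FPKM 32 lower and -0.11, a mean of 1 FPKM a median of -0.20, and all tested Zfp genes 110 lower and -0.26; these sets hold other numbers of genes. The 99 members overlapping no gene held 7 higher and 33 lower, and the 136 with no near-identical transcript, a choice made after seeing the data, 11 higher. DESeq2, other scalings, GC and length corrections and counts divided by 4 gave 17 to 23 higher and 46 to 58 lower.

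With a replicate block 24 were higher, 54 lower and the median was -0.16. The labels name no pairing, and none by replicate number was seen. Same-numbered libraries correlated at 0.06, -0.03 and 0.04 in their deviations, and the other pairs at -0.09 to 0.06. With 3 libraries in a group this check is weak and does not exclude pairing. No block was combined with the GC correction. Of 48 named genes 32 were called and 13 were called in all 18 alternative fits. The planned comparison of protein identity was not run, for want of protein sequences here.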
